A study of Mus musculus with 18 samples.

Results

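The intervals described here are 3243 of the 211682 consensus peaks (1.53%) of an ATAC-seq study of mouse cortical neurons, chosen by their deposited score, a measured value, which is below 1000 in them and exactly 1000 in the other 208439 peaks. ATAC-seq uses the Tn5 transposase to cut and tag open chromatin. The neurons were taken from the cortex of CD1 mouse embryos at E14.5-15 (days of gestation). They were cultured with cytosine arabinoside (2 µM), which kills dividing cells, received lentiviral short hairpin RNAs (shRNAs) on day 6 and were harvested on day 11. Of the 18 samples, 5 had a control and a scrambled shRNA (shControl, shScrambled), 3 had shControl and shAtf4, 5 had shOpa1 and shScrambled, and 5 had shOpa1 and shAtf4. Opa1 is needed for fusion and cristae of mitochondria, and Atf4 drives transcription in the integrated stress response. The list pools the series and has no column for a sample or group, so no knockdown comparison could be made and the depth of each sample is unknown.

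Open chromatin in neurons falls into promoters, which lie at the starts of genes, and distal elements such as enhancers, which lie inside genes or between them. Promoters rich in CpG dinucleotides are open in most cell types and give broad, strong ATAC-seq peaks, whereas many distal elements are open in some cells and give narrower ones. MSPC, whose name the peaks carry, is a program that joins overlapping peaks of several samples and combines their p-values by Fisher's method, so a weakly supported site can enter a consensus when enough samples share it. All shares below are given with exact Clopper-Pearson 95% intervals, which cover counting error only. Peaks are not replicates and no sample values exist, so no test was made and each difference is described by its size and by its direction on separate chromosomes. An interval of either score lay at an end of all 17 pan-neuronal, 15 of 16 excitatory and 15 of 16 inhibitory neuron genes. The share over all protein-coding genes was 70.4%. An interval also lay at an end of all 12 neural progenitor and cell cycle genes. The same held for 7 of 10 astrocyte, 6 of 11 oligodendrocyte, 8 of 12 microglia and 6 of 11 vascular genes. For tissues outside the brain it held for 2 of 13 hepatocyte, 3 of 9 spermatid and 10 of 11 skeletal muscle genes, so a peak at a gene end does not by itself mark a cell type here.

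Below the ceiling the score took 343 distinct values, from 112.811 to 310.719, with a median of 273.983 and quartiles of 245.215 and 294.829. Numbers rose with the score to about 300. There were 191 intervals under 200 (5.89%) and 539 at 300 or more (16.6%). Just inside the limit, 47 intervals stood at 310.719, and none lay between that value and 1000.

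The values were not spread evenly but followed the scale of Fisher's method. Each of the 343 equalled, within 0.00051, minus log10 of the upper tail of a chi-square distribution with 2k degrees of freedom at 2 ln(10) times a whole number. Here k is the number of values combined. Of the 197909 three-decimal numbers in this range, 1.86% match such a value for some k from 1 to 18. For 338 of the scores a single k matched. The remaining 5 scores, held by 68 intervals, matched 2 values of k each. The score thus followed Fisher's formula for k values with a whole-number sum, and k could be counted for 3175 intervals. Minus log10 of a p-value need not be a whole number, and the sources used here do not give which values were combined. The scores and the values per combined input are therefore not read as true p-values.

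Most of these intervals rested on 6 combined values, and none with a single match had fewer. There were 2618 with k = 6 (80.7% of the 3243), 442 with k = 7 (13.6%), 97 with k = 8, 16 with k = 9, and 1 each with k = 10 and k = 12. The largest groups hold 5 samples, so if each sample gave 1 value, an interval of 6 values drew on at least 2 groups. The sources used here do not give which samples entered. The whole-number sum lay between 123 and 323 for k = 6, with a median of 284 or 47.3 per combined value. It lay between 178 and 325 for k = 7, with a median of 42.6 per value, and between 213 and 327 for k = 8, with 37.9 per value. The score that chose the members depends on both the sum and k, so these values, the counts by k included, are a description. At the ceiling k cannot be read, so no comparison with the other intervals was possible. The next step of the scale, 311.712 for a sum of 324 at k = 6, was held by no interval, nor were the next steps of 311.601 at k = 7 and 311.552 at k = 8. At each of these 3 values of k, the step just before it was held, by 47, 6 and 8 intervals.

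**Figure D1:**
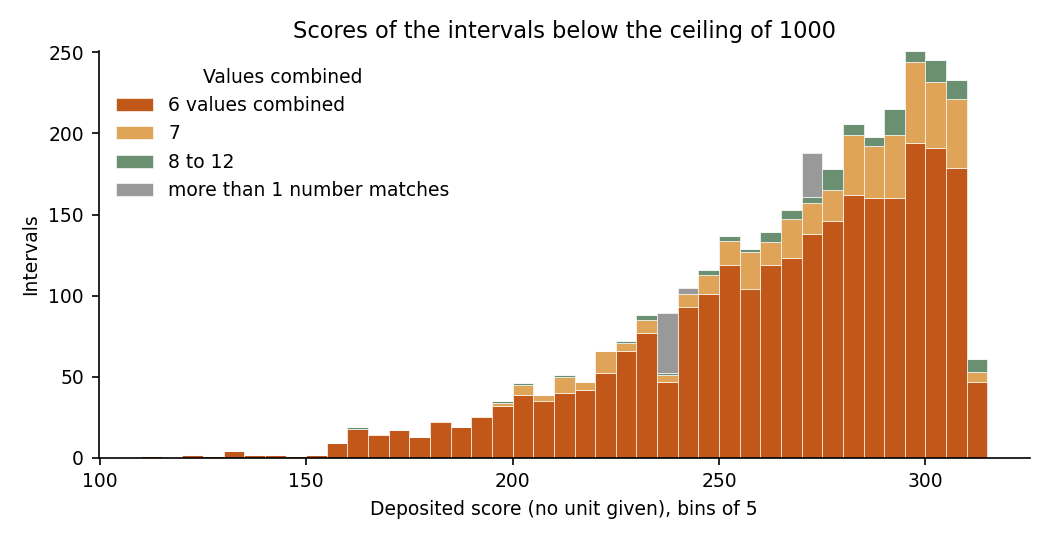
Number of intervals (y axis) by deposited score (x axis, bins of 5, no unit given) for the 3243 intervals below 1000, stacked by the number of combined values that the score matches. The counts climb with the score to about 300, no interval in the last bin lies above 310.719, and k = 6 makes up most of the bar in each of the 40 bins that hold any interval.

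The 5 lowest scores all had k = 6. The lowest, 112.811, belonged to an interval of 255 bp between genes on chromosome 1 (118265719 to 118265973, mm10), 32668 bp from an end of Tsn. The next lay inside Unc5a, a netrin receptor gene (chromosome 13, 54976171 to 54976425, 255 bp, score 120.675), and between genes on chromosome 5 (61423200 to 61423506, 307 bp, score 124.609), 385490 bp from the nearest protein-coding gene end. The fourth lay inside Erc2, a gene of the presynaptic active zone (chromosome 14, 28064608 to 28064927, 320 bp, score 128.546), and the fifth inside Zswim2 (chromosome 2, 83929439 to 83929758, 320 bp, score 130.515). The fifth score was shared by an interval between genes on chromosome 2 (166427887 to 166428086, 200 bp), which ranks after it by position. None of these intervals lay at a gene end. Of the 47 at 310.719, the first 5 by position lay on chromosome 1, 4 of them between genes and 1 at the gene end of Farp2 inside Stk25 (93622288 to 93622593, 306 bp). In these, too, the whole-number sum was 323 at k = 6, and their widths ran from 168 to 356 bp.

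Intervals below the ceiling were narrow. Their median width was 242 bp (quartiles 200 and 292 bp, exact 95% interval of the median 239 to 245 bp), against 429 bp (312 and 630 bp) for intervals scored 1000. The median was lower on all 20 chromosomes that held any, the 19 autosomes and X, at 229 to 258 bp against 408 to 441 bp. Of the low-scored intervals 24.9% were under 200 bp wide and 18 (0.555%) were 500 bp or wider, against 3.87% and 38.9% of those scored 1000. Width and score come from the same peak calls, so they are not independent measures.

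The share of intervals of a given width that were below the ceiling fell steeply with width. It was 9.65% (8.22 to 11.2%) for intervals of 100 to under 150 bp, 5.59% (5.25 to 5.95%) at 200 to under 250 bp, 1.61% (1.46 to 1.78%) at 300 to under 350 bp and 0.414% (0.328 to 0.516%) at 400 to under 450 bp. Within the low-scored set itself width was nearly unrelated to score, with a Pearson r of 0.0867 and a Spearman rho of 0.0856 over 3243 intervals. Its median was 234 bp for scores under 200 and 248 bp for scores of 300 or more. It differed more by k, at 237.5 bp for k = 6, 257 bp for k = 7 and 294 bp (280 to 312 bp) for the 115 intervals with k of 8 or more.

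**Figure D2:**
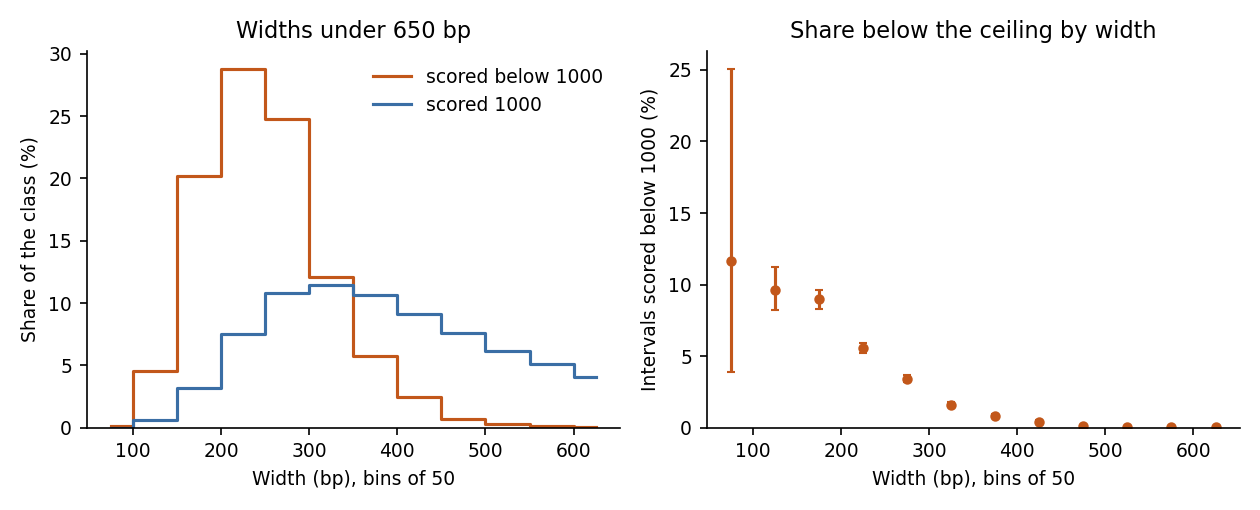
Left, share of each score class (y axis, %) by width (x axis, bp, bins of 50) under 650 bp; right, share of all intervals of a width that score below 1000, with exact 95% intervals as bars. Low-scored intervals peak at 200 to under 250 bp, and their share falls from 9.65% at 100 to under 150 bp to 0.414% at 400 to under 450 bp.

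The widest and narrowest members show the range. The widest, 637 bp (chromosome 4, 148186477 to 148187113, score 295.822), lay between genes 20375 bp from an end of Fbxo2. A member of 600 bp lay inside Gnas, the gene of the stimulatory G protein alpha subunit (chromosome 2, 174300685 to 174301284), and was 51 bp from a second low-scored interval of 208 bp. Others lay inside Stra6, a retinol transporter gene (593 bp), and between genes near Zfp407 (571 bp). The narrowest were 83 bp, inside Dpyd (chromosome 3, 119419091 to 119419173) and between genes on chromosome X. The Dpyd interval stood 4 bp from a peak of 553 bp, and that inside Vps50 (94 bp) stood 10 bp from one of 303 bp. Inside Cntnap2, a neurexin-family gene, an interval of 95 bp stood 10159 bp from its nearest neighbour.

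Low-scored intervals were fewer at protein-coding gene ends than intervals scored 1000. Of them, 148 (4.56%, 3.87 to 5.34%) lay at such an end (midpoint 1000 bp or less from it), against 9.60% (9.48 to 9.73%) of intervals scored 1000 and 9.53% of all. The share was lower on each of the 20 chromosomes, with values between 1.51% and 8.43% against 7.14% to 16.0%. Inside protein-coding genes lay 1622 (50.0%, 48.3 to 51.8%, against 47.9%), genes of other types 267 (8.23% against 8.06%) and sequence between genes 1206 (37.2%, 35.5 to 38.9%, against 34.5%). The median distance to a protein-coding gene end was 36450 bp (33982 to 39038 bp) against 29956 bp (29652 to 30252 bp), and it was longer on 16 of 20 chromosomes.

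**Figure D3:**
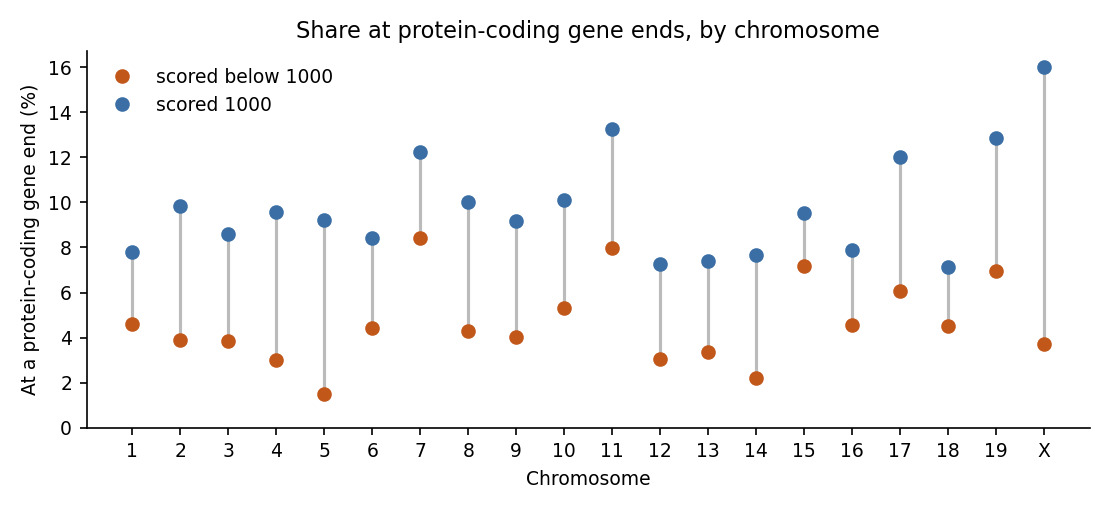
Share of intervals at a protein-coding gene end (y axis, %; midpoint 1000 bp or less away) on each chromosome (x axis) for both score classes, joined by a line. On each of the 20 chromosomes shown the low-scored share lies under that of intervals scored 1000, and no low-scored interval lies on Y.

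Where the direction of transcription was known, the shares differed at starts and overlapped at finishes. Over chromosomes other than 18, which is not analysed here for starts and finishes, 53 of 3132 low-scored intervals lay within 1000 bp of a protein-coding gene start (1.69%, 1.27 to 2.21%), against 6.28% (6.18 to 6.39%) of intervals scored 1000. At the finish of protein-coding genes the shares were 2.08% (1.61 to 2.64%) and 1.98% (1.92 to 2.04%). The shares at starts also varied with width. Among intervals of 200 to under 400 bp the shares at starts were 1.34% (0.904 to 1.90%) and 2.52% (2.41 to 2.63%). Under 200 bp they were 2.85% (1.79 to 4.28%) and 9.49% (8.84 to 10.2%). At gene ends of either kind the shares at 200 to under 400 bp were 4.02% (3.26 to 4.90%) and 5.23% (5.08 to 5.39%). At 400 to under 600 bp the order turned, at 5.04% (1.87 to 10.7%, 6 of 119 intervals) and 4.24% (4.08 to 4.40%), with a wide interval. With intervals scored 1000 weighted to the widths of the low-scored ones, their share at gene ends of either kind was 7.92%, still above 4.56%. Between genes the weighted share was 34.9%, against 37.2%. This difference varied with width. With the low-scored value first, the shares between genes were 36.0% and 30.8% under 200 bp. At 200 to under 400 bp they were close, at 37.6% (35.6 to 39.6%) and 36.8%, and at 400 to under 600 bp 37.8% and 37.9%. Median distances to a gene end were 34674 and 20168 bp, then 38212 and 33272 bp in these classes. At 400 to under 600 bp the order turned, at 27782 and 36847 bp.

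**Figure D4:**
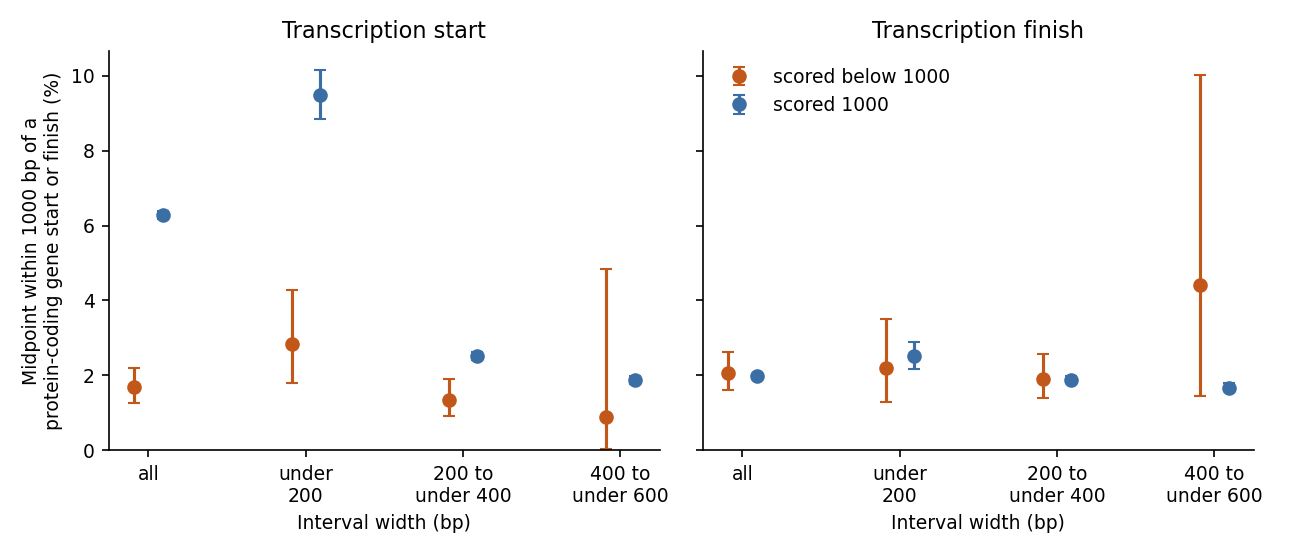
Share of intervals within 1000 bp of a protein-coding gene start (left) or finish (right) (y axis, %) by width class (x axis, bp) for both score classes, with exact 95% intervals as bars. At starts the low-scored share is lower at all widths together (1.69% against 6.28%), under 200 bp and at 200 to under 400 bp, while at 400 to under 600 bp (1 of 113 low-scored intervals) and at finishes the intervals overlap.

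Promoters under a low-scored interval were few. Of 32851 RefSeq promoter windows (GRCm38.p6, 250 bases before to 50 after a start), 35 were touched by 32 low-scored intervals, at 13 protein-coding and 21 long non-coding RNA (lncRNA) genes. Over the chromosomes analysed for starts, this is 1.02% (0.700 to 1.44%) of 3132 low-scored intervals, against 6.73% (6.62 to 6.84%) of those scored 1000. These shares moved with width. Under 200 bp they were 1.03% (0.448 to 2.03%) and 2.25% (1.93 to 2.61%). At 200 to under 400 bp they were 0.980% (0.615 to 1.48%) and 1.51% (1.43 to 1.59%). At 400 to under 600 bp they overlapped, at 1.77% (0.215 to 6.25%) and 2.19% (2.07 to 2.31%). Of intervals of 1000 bp or more, none of them low-scored, 45.2% touched a window. In 26 windows, of 25 genes, the low-scored interval was the sole one, and 17 of these 26 windows belong to lncRNAs, against 20.3% of the windows covered by intervals scored 1000 alone, 50.8% of those with no interval and 35.3% of all windows. The protein-coding genes with the longest overlap of this kind were Slc25a47, a mitochondrial carrier of liver, Lce1g, a protein of the cornified layer of skin, Cys1, a protein of primary cilia, and Blnk, an adaptor of B cell receptor signalling. These are shown, with Gm15527 and Gm15543, 2 of the 3 lncRNAs of longest overlap (the third, Gm46343, ties with Gm15543 at 293 bp), because in each the 300 bp window is touched by a low-scored interval and by none scored 1000. Higher-scored intervals can lie just outside: one stands 78 bp from the Slc25a47 interval, and one touches the window of Gm36129, whose start lies beside that of Cys1. Each run gives the 250 bases before the start, read 5′ to 3′ on the gene's strand, and capitals mark the bases inside the low-scored interval.
Slc25a47: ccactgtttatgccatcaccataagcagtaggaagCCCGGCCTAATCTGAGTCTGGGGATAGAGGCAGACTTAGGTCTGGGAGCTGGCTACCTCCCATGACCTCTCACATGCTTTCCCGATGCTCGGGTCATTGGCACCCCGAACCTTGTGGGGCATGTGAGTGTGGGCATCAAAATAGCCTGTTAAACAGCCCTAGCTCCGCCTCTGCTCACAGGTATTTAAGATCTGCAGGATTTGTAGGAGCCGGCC
Lce1g: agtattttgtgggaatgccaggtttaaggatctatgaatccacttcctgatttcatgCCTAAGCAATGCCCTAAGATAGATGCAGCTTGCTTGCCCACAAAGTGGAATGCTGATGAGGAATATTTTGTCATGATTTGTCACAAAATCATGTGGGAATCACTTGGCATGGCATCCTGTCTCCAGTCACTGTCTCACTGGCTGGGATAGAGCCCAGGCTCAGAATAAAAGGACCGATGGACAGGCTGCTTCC
Cys1: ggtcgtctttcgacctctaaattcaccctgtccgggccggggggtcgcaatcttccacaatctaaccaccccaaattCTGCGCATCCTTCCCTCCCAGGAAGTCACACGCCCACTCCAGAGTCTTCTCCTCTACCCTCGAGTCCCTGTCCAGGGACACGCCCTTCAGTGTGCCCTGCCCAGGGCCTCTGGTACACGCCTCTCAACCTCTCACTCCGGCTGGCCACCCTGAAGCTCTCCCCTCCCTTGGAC
Blnk: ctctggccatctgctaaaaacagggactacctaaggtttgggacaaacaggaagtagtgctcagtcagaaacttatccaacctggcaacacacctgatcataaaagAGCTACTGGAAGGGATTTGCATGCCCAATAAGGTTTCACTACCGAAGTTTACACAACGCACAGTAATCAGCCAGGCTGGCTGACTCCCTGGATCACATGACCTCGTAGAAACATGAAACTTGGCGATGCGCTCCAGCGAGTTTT
Gm15527: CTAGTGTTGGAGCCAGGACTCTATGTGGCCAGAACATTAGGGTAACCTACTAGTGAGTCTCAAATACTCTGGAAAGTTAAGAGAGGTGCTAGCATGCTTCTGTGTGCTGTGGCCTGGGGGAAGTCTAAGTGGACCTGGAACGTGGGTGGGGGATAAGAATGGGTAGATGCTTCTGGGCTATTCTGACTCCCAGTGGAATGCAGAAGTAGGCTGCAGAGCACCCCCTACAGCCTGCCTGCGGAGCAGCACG
Gm15543: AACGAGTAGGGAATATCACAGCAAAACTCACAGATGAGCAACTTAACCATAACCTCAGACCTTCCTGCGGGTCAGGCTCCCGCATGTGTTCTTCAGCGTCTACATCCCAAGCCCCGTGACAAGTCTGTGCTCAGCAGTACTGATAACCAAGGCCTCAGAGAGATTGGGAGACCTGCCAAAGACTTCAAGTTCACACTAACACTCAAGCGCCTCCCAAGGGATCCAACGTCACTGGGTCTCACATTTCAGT
The Slc25a47 sequence is chr12:108850879-108851128 on the plus strand, and its interval (108850914 to 108851248, 335 bp, score 298.801) covered 215 of the 250 bases. That of Lce1g is chr3:92752339-92752588 on the minus strand, with 193 bases inside an interval of 368 bp (score 234.31), the sole consensus interval within 10 kb of the gene. The Cys1 sequence, chr12:24681796-24682045 on the minus strand, had 173 bases inside (196 bp, score 292.844), and that of Blnk, chr19:40994222-40994471 on the minus strand, had 144 (213 bp, score 202.612). Both lncRNA sequences, chr6:54254995-54255244 on the minus strand (Gm15527, 372 bp, score 294.829) and chr6:145182025-145182274 on the plus strand (Gm15543, 380 bp, score 303.767), lay wholly inside. In 21 of the 35 windows the start base itself was inside the interval.

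CpG content in these windows was below that of promoters under an interval scored 1000. The observed over expected CpG ratio had a median of 0.328 (quartiles 0.171 and 0.457) in the 26 windows with a low-scored interval alone. It was 0.732 (0.489 and 0.895) in the 16767 windows with an interval scored 1000 alone and 0.193 (0.101 and 0.316) in the 16049 with none. GC content followed the same order, at 53.3%, 60.7% and 47.0%. Among protein-coding windows alone the order differed: the median was 0.179 in the 9 with a low-scored interval alone, 0.187 in those with none and 0.764 in those with an interval scored 1000 alone. Among lncRNA windows the medians were 0.329 (17 windows), 0.201 and 0.454. Of the sequences printed, Cys1 had the highest ratio (0.560) and Lce1g the lowest (0.0639). The 9 windows touched by both kinds, such as those of Esrrg, an orphan nuclear receptor, and Cntfr, a cytokine receptor, had a median of 0.731.

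**Figure D5:**
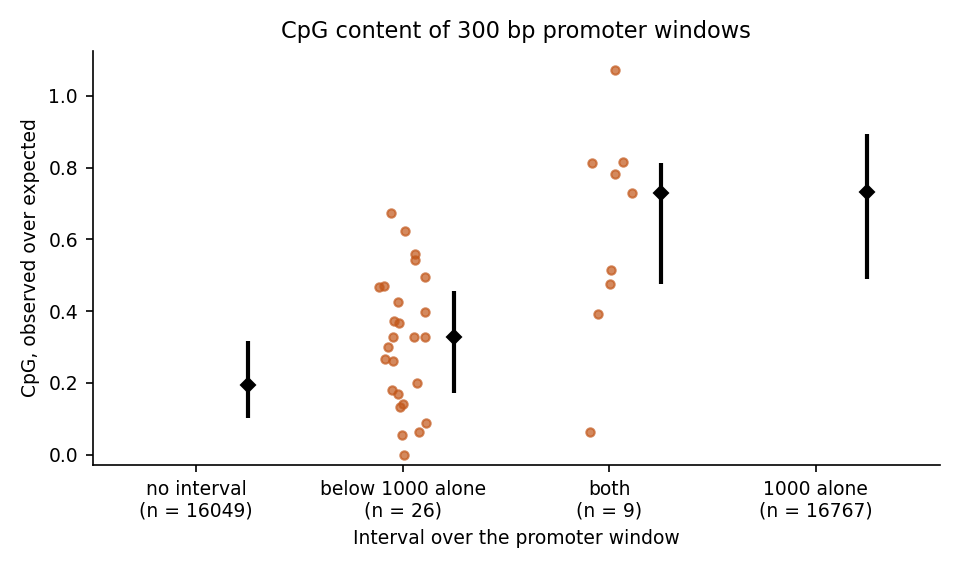
Observed over expected CpG (y axis) in 300 bp promoter windows by the kind of interval over them (x axis, number of windows below each name); orange points are single windows, black diamonds medians and black bars quartiles. Over all gene types, the 26 windows with a low-scored interval alone have a median of 0.328, between 0.193 for windows with no interval and 0.732 for those with an interval scored 1000 alone.

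Protein-coding genes with a low-scored interval at an end mostly had a higher-scored one at an end too, which could be the other end. The ends of a gene were not compared one by one. Of all protein-coding genes, 70.4% had an interval of either score at an end. Of 21770 protein-coding genes, 166 (0.763%) had a low-scored interval with any base within 1000 bp of an end. In 28 of them it was the sole kind at either end. Of these 28, the 20 with the widest were taken. They began with Lrp3, a lipoprotein receptor family gene, whose start was covered (chromosome 7, 35217045 to 35217562, 518 bp, score 273.983). Gm8251 (511 bp) and the acyl-CoA synthetase gene Acsbg1 (418 bp) had theirs beyond the finish. Actl7a, an actin-like gene of testis, had 2, the wider of 338 bp. Further genes were the keratin gene Krt18 (284 bp), the keratin-associated Krtap4-2 (227 bp), the kallikrein gene Klk12 (222 bp), the kidney potassium channel gene Kcnj1 (233 bp), and the olfactory receptor genes Olfr67 (318 bp) and Olfr543 (260 bp). Others were the cytokine subunit gene Il12a (275 bp), the chemokine receptor gene Ccr9 (240 bp) and the transcription factor gene Nfkb2 (253 bp). The remaining ones were Lce1g, Tmem239, Fam170b, Ggt6, Tspoap1, Ucn3 and Steap4, with widths from 222 to 368 bp. At 13 of the 20 the interval was nearer the start and at 6 nearer the finish, and for Tspoap1 the direction was not in the table used. These genes were taken by this rule alone and their expression was not measured.

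Looking at whole gene neighbourhoods, 18587 protein-coding genes had any consensus interval in the gene or within 10 kb. In 13 of them low-scored intervals stood alone, and each of the 13 had 1 consensus interval in all. The fitting comparison is with genes that had 1 interval of either score, which were not counted. Of all intervals 1.53% were low-scored, so the 13 are not read as a trait of the set. They were named after their values were seen. They include Msgn1, a factor of presomitic mesoderm, Taar5, a trace amine receptor of the olfactory epithelium, the lens gene Cryba1, the steroid enzyme genes Hsd3b3 and Akr1d1, the transporter gene Slc22a19, Lce1g, Olfr974 and Olfr982. The others were Ccdc68, Pof1b, Gm5724 and Gm8251.

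Inside protein-coding genes, low-scored intervals lay in 1405 genes, 264 of which held 2 or more. These hosts were long, with a median length of 116 kb against 25.8 kb for all genes with a consensus interval inside, and longer genes hold more intervals of both kinds. As a share of the intervals inside, the low-scored were 0.906% in genes under 10 kb, 1.51% in genes of 100 to 300 kb, 1.72% in genes of 300 to 1000 kb and 1.66% in longer ones. Fhit, a diadenosine triphosphate hydrolase gene of 1612 kb, held the most, 6 of its 97 intervals. Genes with 5 were Dis3l2, an exoribonuclease (5 of 23), Cadm1, a synaptic adhesion molecule (5 of 79), Snd1, an RNA-binding nuclease (5 of 101), Tenm4, a teneurin (5 of 163), and Dab1, the adaptor of reelin signalling (5 of 184). Genes with 4 were Dpf3, a subunit of BAF chromatin remodelling complexes (4 of 41), Chn2, a Rac GTPase-activating protein (4 of 43), Mical3, an actin-oxidising enzyme (4 of 49), and the nuclear receptor gene Rora (4 of 74). None of these 10 had a low-scored interval at an end.

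The gene of Opa1, the target of a knockdown, held 1 low-scored interval, and Atf4 had none within 10 kb. The Opa1 interval (chromosome 16, 29629107 to 29629396, 290 bp) scored 310.561, which matches k = 8 and a sum of 327, the last step below the ceiling at that k. It lay 33876 bp from the gene's finish and was 1 of 7 intervals within 10 kb of the gene. An shRNA acts on RNA, so it does not check the knockdown.

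Of 238 genes in 15 lists of stress, mitochondrial and cell type genes, 2 had a low-scored interval at an end (0.840%, against 0.763% of all protein-coding genes), and 25 had one in the gene or within 10 kb (10.5% against 9.07%). The 2 were Mff, the mitochondrial receptor of the fission protein Dnm1l (chromosome 1, 82725606 to 82725819, 214 bp, score 308.58, midpoint 822 bp past the start), and Olig2, the oligodendrocyte lineage factor (chromosome 16, 91226347 to 91226581, 235 bp, score 258.108, 914 bp past the start). Both stood beside another interval, at 18 and 21 bp. Of 37 Atf4 and integrated stress response genes 3 had one within 10 kb. For the tRNA synthetase gene Aars it lay inside the gene. For the stress hormone gene Gdf15 it lay 8722 bp beyond the finish, at an end of another protein-coding gene. For Wars it was the interval at the Slc25a47 start. None of 27 oxidative phosphorylation genes had one, and of 21 genes of mitochondrial dynamics 4 did (Opa1, Mff, Chchd3 and Chchd6).

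Among neuronal lists, 5 of 17 pan-neuronal genes had one within 10 kb, led by the splicing factor gene Rbfox3 with 4 of 144 intervals, and Map2, a dendritic microtubule protein gene, with 2 of 46 that stood 148 bp apart. Inhibitory neuron genes had one in 4 of 16 cases (Adarb2 with 3, Reln with 2, Gad1 and Slc32a1 with 1 each), excitatory genes in 3 of 16 and immediate early genes in 2 of 15. The low-scored share of the intervals around these genes was 1.83% for pan-neuronal, 2.29% for inhibitory, 0.824% for excitatory and 1.29% for immediate early genes, against 1.45% over all protein-coding genes. These shares rest on 2 to 9 intervals each. Astrocyte genes had them in 2 of 10 cases (Slc4a4 and Slc1a2), oligodendrocyte genes in 1 of 11 (Olig2) and progenitor genes in 1 of 12 (Eomes). No microglia, vascular, hepatocyte, spermatid or muscle gene of the lists (0 of 56) had one. These lists were joined after their values were seen. The 56 genes had 230 intervals of either score, counted per gene. Over all protein-coding genes 9.07% had a low-scored interval within 10 kb and 1.45% of intervals were low-scored. At these shares few were to be looked for, so the 0 is not read as a cell type result.

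Neighbouring peaks were compared last. The median gap from a low-scored interval to the nearest other peak was 1652 bp (1480 to 1820 bp), against 1940 bp (1923 to 1959 bp), and 41.9% (40.2 to 43.6%) had a peak within 1 kb against 37.8%. This closeness moved with width and turned when widths were alike. Against intervals scored 1000 weighted to the same widths, the gap was the longer, at 1652 bp against 1223 bp, and the share within 1 kb the lower, at 41.9% against 47.2%. At 200 to under 400 bp the gaps were 1867 and 1836 bp and the shares within 1 kb 38.7% and 39.1%. Under 200 bp the low-scored gap was the longer, at 692.5 bp against 225 bp. The nearest peak of a low-scored interval had a usual width, with a median of 416 bp against 418 bp, and was the wider of the pair in 84.6% of cases. It lay at a protein-coding gene end in 6.32% of cases, against 9.90%. Local density was alike, with a median of 12 other peaks in the surrounding 100 kb for both classes, and 5.77% (4.99 to 6.62%) of low-scored intervals had no peak within 20 kb, against 4.52%.

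Low-scored intervals lay on every autosome and on X. Their share of all intervals ran from 1.33% on chromosome 7 to 1.76% on chromosome 16 over the autosomes and was 1.49% on X (54 of 3622). None of 47 on Y (exact interval up to 7.55%) and none of 8 on the mitochondrial genome was below the ceiling. The nearest peak was also low-scored for 78 of them (2.41%, 1.91 to 2.99%), against 1.55% (1.49 to 1.60%) of intervals scored 1000, and this share was higher on 14 of 20 chromosomes. At 200 to under 400 bp the shares were 2.59% and 1.57%. Weighted to the widths of the low-scored intervals, the share of those scored 1000 was 1.44%. In file order, 3104 stood alone between intervals scored 1000, 136 formed 68 adjacent pairs, and 3 formed a run on chromosome 8 (128211238 to 128214123). The run's widths were 268, 269 and 279 bp, inside a gene that is not protein-coding. Of 2556 blocks of 1 Mb with any peak, 903 held none, 773 held 1 and 8 held 7, the most. The 3 of these 8 with the highest share were on chromosome 1 (86000001 to 87000000, 7 of 111, 5 of them inside Dis3l2), chromosome 12 (83000001 to 84000000, 7 of 131, 4 inside Dpf3) and chromosome 16 (5000001 to 6000000, 7 of 151, 1 of them inside Rbfox1). Numbers of pairs, runs and blocks under random placement were not computed, so these counts are not read as grouping or as its absence.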

How the data were processed

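ATAC-seq was done on 18 cultures. The authors deposited 1 consensus list with a start, end, name and score per interval. The score has no stated unit. MSPC stands in the peak names. Per the submitters' processing notes the build was mm10 and the tools included deepTools, MultiQC and MACS2, with no version stated. The sources used here give no aligner, read shift, threshold or depth, so precision from depth is unknown. Scores were compared with Fisher's combined p-value for k from 1 to 18. Gene ends were those of RefSeq on GRCm38.p6, without 21 genes that lack a chromosome and 348 on scaffolds. Starts, direction and promoter sequence came from a RefSeq promoter table of 27025 genes, which holds both for 17491 protein-coding genes. The planned sequence composition of intervals was not run, as it needs a genome, and promoter windows took its place. The planned contrasts of groups were not run, since the list has no sample values. Distances were taken from midpoints, and gaps from edge to edge. Named intervals were the 5 lowest, 5 highest, 5 widest and 5 narrowest members and the 3 blocks of 1 Mb with the most members. One interval that the rule names is not reported here. Named genes were the 10 with the most members inside, the 20 with the widest member alone at an end, list genes with one at an end, Atf4 and Opa1. The set, the lists and the rules were chosen with earlier results of these data known. Functions were tested on simulated data. Scripts ran in Python 3.11.15 with scipy 1.17.1, pandas 2.3.3, matplotlib 3.10.9 and numpy 2.4.6.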

Additional observations from a re-analysis of the deposited data

How the results depend on the processing

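Of 46 alternatives to 8 values, 42 kept the direction of the difference from intervals scored 1000. Some alternatives change few intervals and could hardly reverse a direction, so this count does not measure robustness. Chromosomes 1 to 19 hold 3189 of the 3243 members, and scores of 200 or more hold 3052. Members with scores under 200, of which there are 191, had a median width of 234 bp, 5.76% at gene ends, 40.3% between genes, a median gap of 1821 bp, 39.3% with a peak within 1 kb and 4.19% with a low-scored nearest peak. The share at gene ends was 2.44% with 500 bp windows (6.72% of intervals scored 1000) and 9.34% with 2500 bp windows (14.7%). A peak lay within 5 kb of 73.0% of members (72.4%), and the median distance to an end of a gene of any type was 14275 bp (11638 bp). The 4 reversals concern neighbours. At 200 to under 400 bp the gap was 1867 bp (1836 bp) and the share with a peak within 1 kb was 38.7% (39.1%). With intervals scored 1000 weighted to the members' widths, an alternative chosen after seeing the data, the gap was 1652 bp (1223 bp) and the share 41.9% (47.2%). The weighting matches width alone, and the cause was not tested. No paired analysis was possible because the deposited intervals carry no value for any single sample. Depth, and thus how many weak sites were missed, is unknown.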

Other observations

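Gene families are given beside the 1.53% of all intervals that are low-scored. Of 1109 olfactory receptor genes, 8 had one in the gene or within 10 kb, from 6 of 392 distinct intervals around the family (1.53%). Vomeronasal receptor genes had 1 of 74 distinct intervals (1.35%), around Vmn2r29, and zinc finger genes of the Zfp series had 22 of 1868 (1.18%). In the clustered protocadherins, adhesion genes whose models share their last exons, 30 of 57 genes counted one, but these were 4 distinct intervals of 82 (4.88%) shared by overlapping gene models. None of 1005 microRNA hairpins in the RefSeq table was touched by a low-scored interval, and 200 were touched by one scored 1000. With 1.53% of all intervals low-scored, few such hairpins were to be looked for, so their absence is not read as a difference.

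Short motifs were counted on both strands in the 300 bp promoter windows. The E-box, CANNTG, was in 24 of the 26 windows with a low-scored interval alone, in 64.8% of windows with an interval scored 1000 alone, in 80.2% of those with none and in 72.3% of all windows. The CCAAT box was in 5 of the 26 and in 37.4% of all windows. The AP-1 motif TGANTCA, the cAMP response element TGACGTCA and the Atf4 composite TGATGNAA were in none of the 26, and in 7.81%, 1.79% and 3.97% of all windows. At these shares few matches were to be looked for among 26 windows, so their absence is not read as a difference. Windows were counted whole, so a match can lie outside the low-scored interval, and those of Gm34439 overlap each other. A motif match describes letters alone.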
